A study of Saccharomyces cerevisiae with 24 samples.

Results

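Old mother cells of budding yeast were compared with the young log-phase cells they descended from, in diploid wild type. The comparison used 4 of the 24 samples of the series, picked by their titles: replicates 1 and 2 of "WT-LOG (for MUS81)" and replicates 1 and 2 of "WT-48h (for MUS81)". All 4 carried the genotype given as wild-type MEP diploid. MEP stands for the mother enrichment system, in which estradiol switches on a recombinase in daughter cells, made from the daughter-specific SCW11 promoter, that removes UBC9 and CDC20, so that daughters stop dividing while mothers continue. Cells grew in YPD with 2% glucose at 30 °C. Aged cultures were labelled with biotin, received 1 µM estradiol and were harvested after 48 h, whereas log-phase cells came from the starting culture. Mothers were then purified by the label. Age, estradiol, labelling, purification and time in culture therefore cannot be told apart. Further libraries gave values beside this comparison. These were wild type at 24 h (2 libraries), the mus81 mutant MEP diploid in log phase and at 48 h (2 libraries each, same table), and 1 library per age of the control strain of a translocation experiment. That control strain was an a/a MEP diploid with Tom70-GFP and ADE2. Every measurement was a poly(A)+ directional RNA-seq library.

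A yeast mother makes a limited number of daughters and keeps the wall, the long-lived proteins and most of the extrachromosomal DNA. In glucose the fast-growing cell spends most of its mRNA on ribosomes, translation and fermentation, under the control of the TOR and protein kinase A pathways. When these pathways are low, the transcription factors Msn2 and Msn4 act on genes of the environmental stress response, and genes for respiration, storage sugars and gluconeogenesis are relieved of glucose repression. Genes of mating and of meiosis are normally silent in a growing diploid that carries both mating types. The labels used here do not give the mating type of the wild-type diploid.

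The log-phase libraries held 7417677 and 7575056 reads, the 48 h libraries 3020733 and 3985825, and the 24 h libraries 5523986 and 1656535. Values are the log2 values as deposited, given for replicate 1 and then replicate 2. Replicates correlated across genes at 0.992 in log phase and 0.983 at 48 h (Pearson's r, in which genes are not independent). The labels do not say that replicates were separate cultures, so p-values measure the spread between these libraries only. A difference is the 48 h mean minus the log mean, with its standard error (SE) from limma, and a feature was called at a Benjamini-Hochberg adjusted p under 0.05 over all features. The choice of scaling moved the differences. The median difference of all features was 0.15 on the deposited scale and 0.80 when libraries were scaled to total reads, so that list medians a little below 0 become positive on the latter scale. It was -0.11 after quantile normalization, which also moved lists relative to each other. On the deposited scale each list is read against 0.15, and values after quantile normalization are given for several lists that they change.

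Of 6669 features tested, 2206 were called higher at 48 h, which is 33.1%, and 2005 were called lower, which is 30.1%, or 63.1% in both directions. Large rises outnumbered large falls on the deposited scale: 784 features rose and 77 fell by over 4-fold, and 170 rose and 0 fell by over 16-fold. Scaled to total reads, 3963 were higher and 900 lower. The libraries of the ages did not overlap for 5694 features, or 85.4%, which is background for any single gene whose libraries separate. In bulk RNA, fewer cells of a kind and less RNA per cell cannot be told apart.

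The mRNA pool became more even with age. In log phase few genes made up most of the mRNA: 231 and 224 genes held 50% of the reads. At 24 h this took 356 and 307 genes, and at 48 h 526 and 467. The 10 most abundant genes held 12.6% and 12.5% of reads in log phase and 6.76% and 7.27% at 48 h. TDH3, the main glyceraldehyde-3-phosphate dehydrogenase, stayed the most abundant gene but went from 2.08% and 2.03% of reads to 1.35% and 1.45%. ENO2, an enolase, went from rank 2 to rank 7. The second place at 48 h belonged to SED1, a major wall protein of resting cells, which went from 0.114% and 0.0705% of reads to 0.938% and 0.837%. Genes were also ranked by their level in the log-phase libraries of the mus81 mutant, which take no part in the comparison. Features below the 25th percentile of that level had 875 members called higher and 13 lower, with a median difference of 1.66. Those above the 75th percentile had 147 called higher and 1223 lower, with a median of -0.83.

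**Figure D1:**
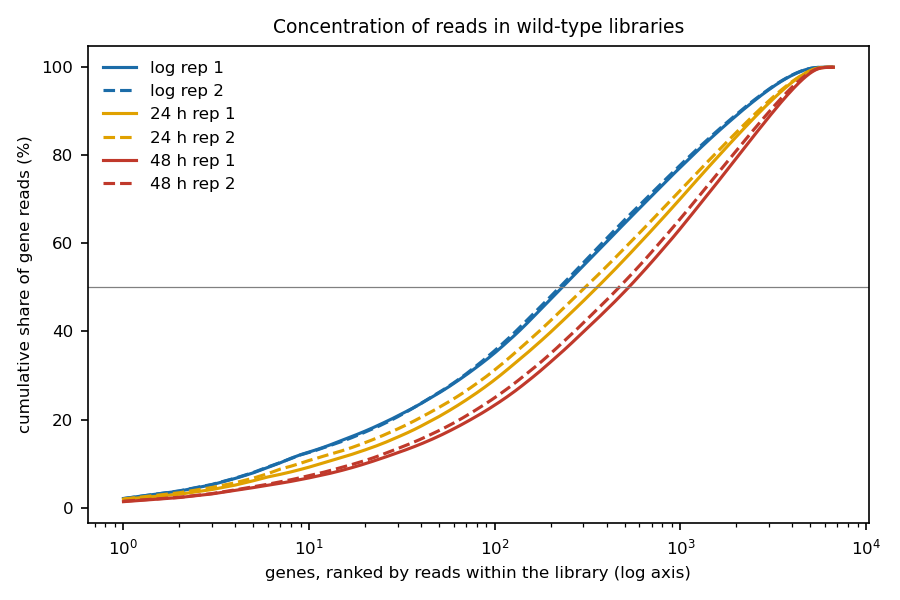
Cumulative share of gene reads (%, vertical) against the number of genes ranked by reads within each wild-type library (horizontal, log axis), with solid lines for replicate 1 and dashed lines for replicate 2. The 50% line is crossed at 231 and 224 genes in log phase, at 356 and 307 at 24 h and at 526 and 467 at 48 h.

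New transcripts appeared where log-phase cells had almost none. There were 720 features with at most 3 reads in each log-phase library, and 19 of these had at least 50 reads in each 48 h library. In the other direction 312 features had at most 3 reads in each 48 h library, and 0 of these had 50 reads in each log-phase library. MOH1, a gene of the stationary phase, went from 1 and 1 reads to 256 and 249, a ratio of 344 on the deposited scale (95% interval 94.7 to 2848, exact binomial, counting error only). DDR2, a small stress protein, had 0 and 0 reads and then 167 and 168, which is at least 152-fold higher against a floor of 3 reads over the group. XBP1, a repressor made in stress and quiescence, went from 3 and 0 reads to 137 and 126, a ratio of 119 (40.4 to 583). FBP1, fructose-1,6-bisphosphatase, went from 0 and 1 reads to 91 and 88, a ratio of 244 (43.2 to 9683). These genes are shown from those picked by their reads, so the separation of the ages in them is a description, and the upper limits are wide because a few log-phase reads set them.

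The environmental stress genes made the largest rises. Of 39 small heat shock and hydrophilin-like genes, 38 were called higher and 0 lower, with a median difference of 3.60. Together they took 0.0395% and 0.0307% of reads in log phase and 0.611% and 0.486% at 48 h. HSP26, a small heat shock chaperone, stood at 1.76 and 2.56 in log phase and at 11.21 and 10.89 at 48 h. The difference was 8.89 ± 0.27 (SE; limma adjusted p = 1.11e-11), the largest of all features tested. HSP12, a membrane-stabilizing stress protein, stood at 3.76 and 3.34 and then at 11.79 and 11.62, a difference of 8.16 ± 0.19. TMA10, a small protein related to the ATP synthase factor Stf2, went from 2.57 and 2.34 to 10.51 and 10.06. For all 3 genes the replicates of an age lay far closer to each other than to the other age, with the widest pair that of HSP26 in log phase. FMP16, a mitochondrial stress protein, rose by 6.34 ± 0.35 and the hydrophilin gene SIP18 by 4.84 ± 0.41. YGP1, a secreted glycoprotein of nutrient limitation, rose by 4.08 ± 0.19, and the polyubiquitin gene UBI4 rose by 2.51 ± 0.24. Trehalose and glycogen genes went the same way: 19 of 21 were called higher and 1 lower, with a median of 2.18. GLC3, the glycogen branching enzyme, stood at 4.29 and 4.21 in log phase and at 8.59 and 8.37 at 48 h (difference 4.23 ± 0.20). Glycogen phosphorylase, GPH1*, rose by 3.72 ± 0.19, so genes for making and for breaking down glycogen rose together. An asterisk marks a gene that shares sequence with another gene, or overlaps one on its strand, so that its reads are uncertain. TSL1, a regulatory subunit of trehalose synthase, rose by 3.13 ± 0.22 and the trehalase gene NTH1 by 1.68 ± 0.15.

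Of 28 stress regulators, 9 were called higher and 9 lower, 32.1% each way and thus near the background, and their median was 0.01. MSN2 stood at 8.54 and 8.17 in log phase and at 7.48 and 7.45 at 48 h, while its paralog MSN4 went from 7.33 and 7.23 to 8.31 and 8.17. MSN2 fell by 0.90 and MSN4 rose by 0.96 (SE 0.17 and 0.16), so this pair of factors crossed over. GPG1, a small protein that acts with the Gα protein Gpa2, rose by 6.68 ± 0.33, and USV1, a zinc finger factor, rose by 3.08 ± 0.33. CCCCT, the stress response element recognised by Msn2 and Msn4, was searched on both strands in the 300 bases from 400 to 101 bases before the start codon. It was found in 23.6% of 5846 promoters, in 32.5% of genes called higher, in 17.6% of genes called lower and in 84.2% of the small heat shock list. Among genes that rose by over 4-fold it was found in 42.3%. A match is a description and not a shown binding site. The window of HSP26 is printed because this gene had the largest rise; build R64, chr II:381630-381929, + strand, with the element in capitals.
HSP26: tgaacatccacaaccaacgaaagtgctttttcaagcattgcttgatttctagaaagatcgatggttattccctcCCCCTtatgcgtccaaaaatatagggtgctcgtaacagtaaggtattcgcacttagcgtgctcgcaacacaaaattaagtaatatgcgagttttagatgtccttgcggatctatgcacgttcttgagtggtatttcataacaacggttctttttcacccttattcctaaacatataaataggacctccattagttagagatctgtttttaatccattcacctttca

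Chaperones moved in both directions. Among 34 genes of the chaperone list, which is not only cytosolic, 13 were called higher (38.2%) and 14 lower (41.2%), shares not far from those of all features. SSA4, the most heat-inducible Hsp70, stood at 7.01 and 6.95 in log phase and at 10.09 and 10.04 at 48 h (difference 3.08 ± 0.18). HSP78, the mitochondrial disaggregase, rose by 3.11 ± 0.30, HSP104, the cytosolic disaggregase, by 2.08 ± 0.22 and HSP82, an inducible Hsp90, by 2.08 ± 0.13. Conversely SSB1*, the Hsp70 that sits on translating ribosomes, went from 14.97 and 15.08 to 12.81 and 13.14 (difference -2.04 ± 0.19). SSA2*, the main constitutive Hsp70, fell by 1.49 (SE 0.15). The share of SSA4 among the 4 SSA genes, per kilobase, went from 0.422% and 0.430% to 6.64% and 5.84%, and that of SSA2* from 68.6% and 68.3% to 41.3% and 42.8%. Defence against oxidants was mixed, with 20 of 39 called higher (51.3%) and 13 lower (33.3%), beside 33.1% and 30.1% of all features. OYE3, a NADPH oxidoreductase, rose by 4.38 ± 0.35 and the catalase gene CTT1 by 3.16 ± 0.26. YHB1, the flavohaemoglobin that removes nitric oxide, stood at 12.72 and 12.84 in log phase and at 9.41 and 9.37 at 48 h. Its difference of -3.39 ± 0.30 (limma adjusted p = 2.16e-07) was the largest fall of a gene without an asterisk.

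**Figure D2:**
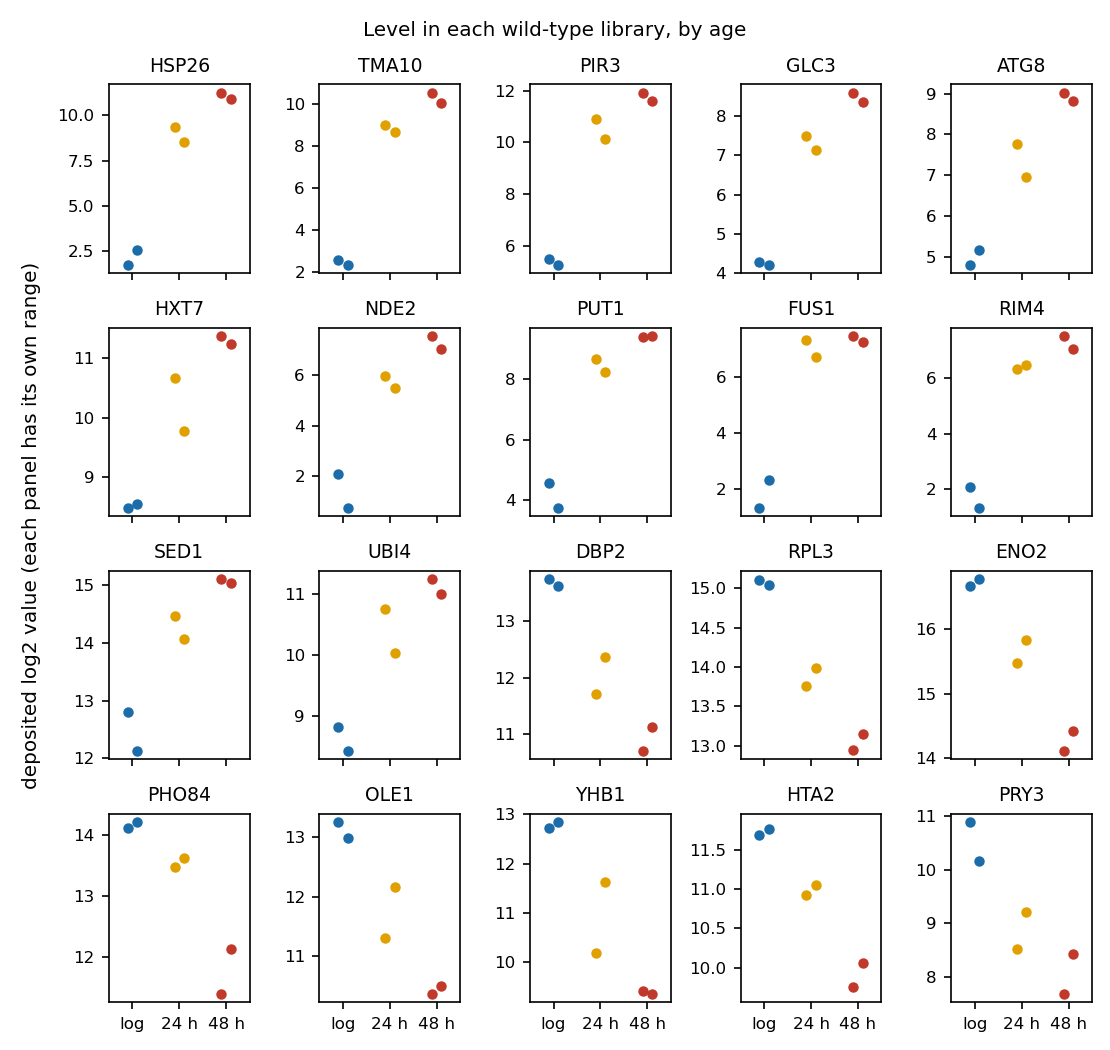
Deposited log2 value (vertical, each panel with its own range) of 20 genes by age in the wild-type libraries, with 1 point per library. HSP26 went from 1.76 and 2.56 to 11.21 and 10.89 and YHB1 from 12.72 and 12.84 to 9.41 and 9.37, and in the panels shown the 48 h points lie apart from the log-phase points.

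Genes of ribosome production fell. All 121 of the assembly factors tested were called lower, with a median of -1.57, and their share of reads went from 4.86% and 5.43% to 2.59% and 2.68%. DBP2, an RNA helicase of ribosome assembly and mRNA export, stood at 13.75 and 13.63 in log phase and at 10.70 and 11.13 at 48 h (difference -2.77 ± 0.20; limma adjusted p = 3.94e-08). NSR1, the yeast nucleolin, went from 13.70 and 13.69 to 10.96 and 11.16, and NOP1, the rRNA methyltransferase fibrillarin, from 12.97 and 13.12 to 10.57 and 10.91. The assembly median was -0.91 with total reads as the scale. Of 81 genes for proteins of the large subunit, 79 were called lower and 0 higher (median -1.21), and of 57 for the small subunit, 54 and 0 (median -1.16). RPL3 had the largest fall among them, from 15.11 and 15.04 to 12.94 and 13.15. After quantile normalization the medians of both subunits shrank to -0.22 and -0.20. Subunits and factors of RNA polymerase I, which transcribes the rRNA repeats, were lower in 10 of 15 cases and higher in 0, led by RPA43, RPA135 (-1.95 ± 0.18) and RPA190 (-1.78 ± 0.14). For RNA polymerase III the counts were 16 of 22 and 0. With total reads as the scale they were 5 lower and 2 higher for polymerase I, and 8 lower and 5 higher for polymerase III.

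The translation machinery fell with the ribosome. Of 40 translation factors 37 were called lower, with a median of -1.46, and of 21 tRNA synthetases 20 were, with a median of -1.47. TIF4631, which encodes the scaffold eIF4G, stood at 12.42 and 12.51 in log phase and at 10.00 and 10.01 at 48 h (difference -2.46 ± 0.14). TEF4, a subunit of elongation factor 1B, fell by 2.22 (SE 0.16) and KRS1, the lysine tRNA synthetase, by 1.96 (SE 0.14). Each of these lists had a single member called higher, and both are little-used paralogs. HEF3, the second form of elongation factor 3, went from 5.91 and 6.21 to 8.14 and 8.09, and GRS2, a second glycine tRNA synthetase, from 6.87 and 7.08 to 7.95 and 7.71. Purine synthesis, which feeds RNA synthesis, had 18 of 20 genes called lower and 0 higher, led by ADE5,7 with -2.21 ± 0.18. Nuclear pore genes had 30 of 33 lower, with a median of -0.80. The PAC element GATGAG stood in 63.6% of assembly factor promoters against 18.5% of all. The RRPE element AAAATTTT stood in 70.2% against 9.08% of all, and in 18.4% of genes called lower against 3.69% of those called higher. The window of DBP2 is shown because it fell most on this list and holds both elements, in capitals, PAC on the opposite strand and RRPE as its own reverse complement; build R64, chr XIV:413239-413538, + strand.
DBP2: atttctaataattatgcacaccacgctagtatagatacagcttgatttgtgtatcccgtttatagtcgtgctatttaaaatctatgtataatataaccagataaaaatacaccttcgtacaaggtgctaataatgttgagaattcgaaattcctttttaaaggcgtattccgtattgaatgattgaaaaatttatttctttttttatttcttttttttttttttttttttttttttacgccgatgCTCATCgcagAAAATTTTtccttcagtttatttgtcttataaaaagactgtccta

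Amino acid synthesis did not follow as one group: 20 of 80 genes were called higher and 43 lower, with a median of -0.44. With total reads as the scale the median was 0.21, beside 0.80 for all features. The 4 largest rises were those of ARG3, GDH3, ARG4 and MET2. ARG3, ornithine carbamoyltransferase, stood at 3.57 and 3.34 in log phase and at 6.65 and 6.72 at 48 h, a difference of 3.23 ± 0.27, and ARG4, argininosuccinate lyase, rose by 1.95 ± 0.16. GDH3, a glutamate dehydrogenase of non-fermenting cells, rose by 2.30 ± 0.23. Genes for taking nitrogen from poor sources rose: 30 of 40 were called higher and 4 lower, with a median of 1.35. PUT1, proline oxidase, stood at 4.57 and 3.75 and then at 9.39 and 9.42 (difference 5.24 ± 0.24; limma adjusted p = 6.56e-10). DAL4, the allantoin permease, rose by 4.93 ± 0.31, DUR3, a urea transporter, by 2.06 ± 0.26 and GAP1, the general amino acid permease, by 2.38 ± 0.25. DAL80, a GATA repressor of the same genes, went from 2 and 2 reads to 40 and 36.

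Most glycolytic genes fell on the deposited scale, and several sets of isozymes changed in makeup. Of 21 glycolytic genes 13 were called lower and 5 higher, and the list went from 8.87% and 8.52% of reads to 4.58% and 4.91%. The list median was -1.28, but after quantile normalization it was -0.20, with 8 called lower and 6 higher. ENO2 stood at 16.68 and 16.78 in log phase and at 14.11 and 14.41 at 48 h, a difference of -2.48 ± 0.22. CDC19, the main pyruvate kinase, fell by 2.07 (SE 0.19) and ADH1, the fermentative alcohol dehydrogenase, by 2.26 (SE 0.20). The 5 called higher on the deposited scale were GPM2, GLK1*, HXK1*, PFK26 and PYK2. GPM2, a phosphoglycerate mutase homolog, went from 14 and 7 reads to 167 and 169 (difference 4.54 ± 0.34). Shares within a set of isozymes do not depend on a factor that scales a whole library. They were taken from recovered reads and were not computed after quantile normalization. Hexokinase HXK2 made up 95.1% and 96.0% of the hexokinase transcripts per kilobase in log phase and 50.8% and 52.9% at 48 h. HXK1* went from 2.18% and 1.95% to 21.9% and 22.2%, and the glucokinase GLK1* from 2.76% and 2.06% to 27.2% and 24.9%. The enolase ENO1 went from 8.54% and 6.97% to 29.3% and 26.6%, and ACS1, the acetyl-CoA synthetase of respiring cells, from 0.769% and 1.07% to 10.2% and 7.68%. Some sets did not shift in this way. ADH2, the glucose-repressed enzyme that oxidizes ethanol, made up 4.54% and 6.43% of its pair with ADH1 in log phase and 4.80% and 5.18% at 48 h, since both fell (ADH2 by 2.38, SE 0.17). CDC19 still made up 99.1% and 98.8% of its pair with PYK2.

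**Figure D3:**
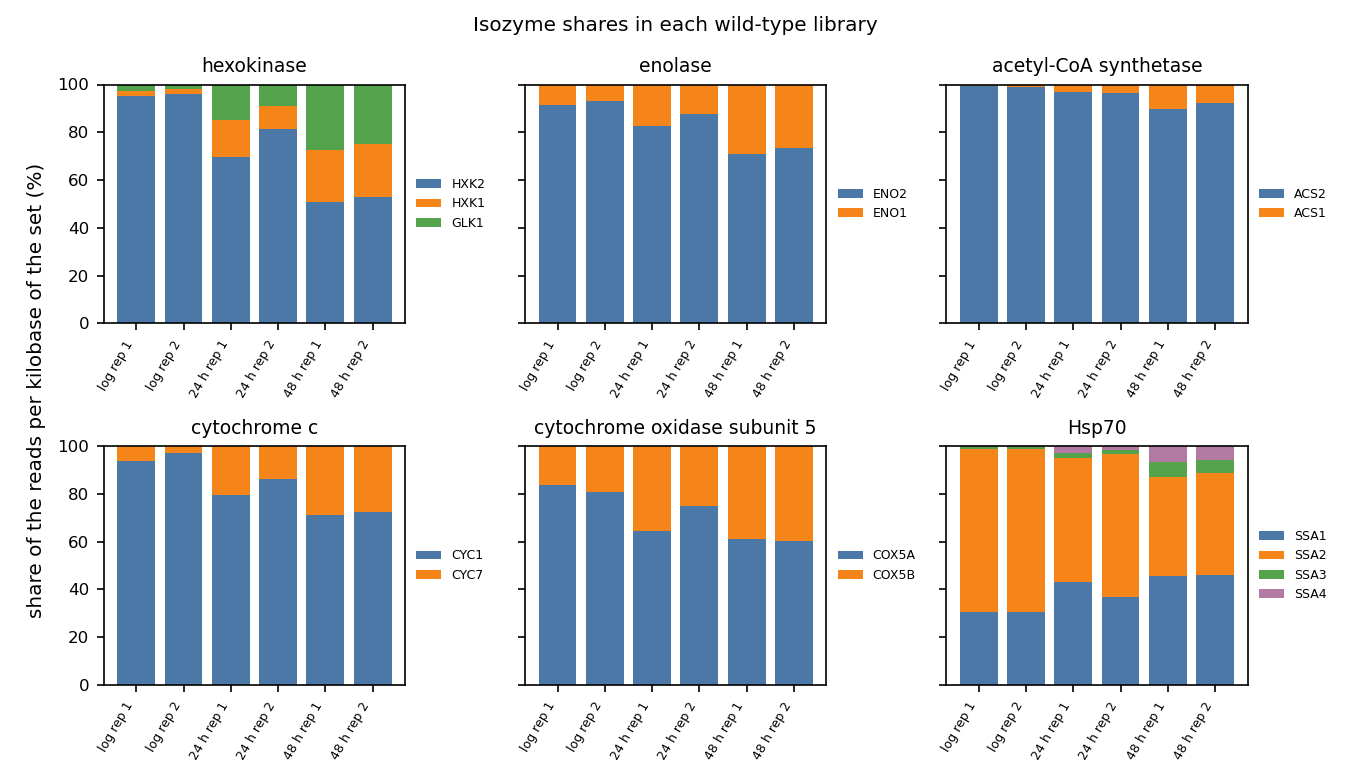
Share of reads per kilobase (%, bars stacked to 100) of each isozyme within its set, in each of the 6 wild-type libraries, ordered by age. HXK2 fell from 95.1% and 96.0% to 50.8% and 52.9% of the hexokinases, and CYC7 rose from 6.16% and 2.73% to 28.9% and 27.4% of cytochrome c.

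Genes of gluconeogenesis and of sugar transport were mostly higher at 48 h. Of 25 genes of gluconeogenesis and the glyoxylate cycle 22 were called higher and 1 lower, with a median of 1.96. PCK1, phosphoenolpyruvate carboxykinase, stood at 4.41 and 4.07 in log phase and at 8.98 and 8.46 at 48 h (difference 4.48 ± 0.25; limma adjusted p = 3.41e-09). JEN1, the lactate and pyruvate carrier, rose by 5.55 ± 0.34 and the malate synthase gene MLS1 by 4.26 ± 0.63. The exception was ATO3, a presumed ammonia exporter, which went from 9.97 and 10.02 to 7.10 and 7.54, while its relative ATO2 went from 5 and 1 reads to 64 and 60. Hexose transporters had 14 of 17 members higher and 2 lower, with a median of 2.98. The asterisk applies to 8 of the 17, so their rises are not all separate measurements. Without features under the 25th percentile of mean level 7 members were left, with 4 higher and 2 lower, and their median stayed positive. HXT7*, a high-affinity carrier, stood at 8.48 and 8.54 and then at 11.37 and 11.24, and HXT5, the carrier of slow-growing cells, rose by 3.10 ± 0.20. HXT1, the low-affinity carrier of high glucose, went from 11.18 and 10.97 to 9.51 and 10.36 (difference -1.14 ± 0.23). HXT3, another low-affinity carrier, stood at 13.37 and 13.35 and at 13.21 and 13.66, and its ages overlapped. Of 20 genes for other sugars, such as maltose and galactose, 18 were called higher and 0 lower, but 7 and 1 after quantile normalization, where the median went from 1.48 to 0.40. SUC2, the glucose-repressed invertase, was not called (difference 0.22 ± 0.13).

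Most respiratory genes rose. Of 46 genes of the respiratory chain and ATP synthase 41 were called higher and 1 lower, with a median of 1.19, and they went from 0.323% and 0.307% of reads to 1.10% and 0.960%. NDE2, an external NADH dehydrogenase, had the largest rise, from 5 and 2 reads to 147 and 124. The inhibitors of the ATP synthase INH1 and STF1 rose by 3.85 ± 0.19 and 4.03 ± 0.21. INH1 stood at 4.93 and 5.14 in log phase and at 9.10 and 8.68 at 48 h. HAP4, the limiting activator of respiratory genes, went from 7.65 and 6.74 to 9.13 and 9.12. CYC7, the minor cytochrome c, rose by 4.33 ± 0.43 and COX5B, the minor form of its oxidase subunit, by 2.09 ± 0.32. In the TCA cycle 15 of 22 genes were called higher and 3 lower. SDH1, a succinate dehydrogenase subunit, rose by 2.59 ± 0.18 and the citrate synthase gene CIT1 by 1.65 ± 0.18. Of 68 genes of the mitochondrial ribosome 4 were called higher and 18 lower, with a median of -0.19. With total reads as the scale 44 were higher and 0 lower, with a median of 0.47, below the 0.80 of all features on that scale. Peroxisomal and fatty acid oxidation genes had 20 of 31 higher and 2 lower. After quantile normalization 9 were higher and 4 lower, and the median went from 0.69 to 0.20. The oxidase gene POX1 went from 3 reads in log phase to 102 at 48 h over both libraries (ratio 46.3, 95% interval 15.4 to 228).

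Glycerol isozymes moved in opposite directions. GPD2 and RHR2, the dehydrogenase and phosphatase used in fermentation, fell, and GPD1 and HOR2, used in osmotic stress, rose. RHR2 stood at 13.83 and 13.78 in log phase and at 10.98 and 11.22 at 48 h, a difference of -2.70 ± 0.17, and GPD2 fell by 1.52 (SE 0.14). HOR2 went from 8.15 and 8.10 to 9.84 and 10.04 (difference 1.82 ± 0.16), still below RHR2 per kilobase in each library, and GPD1 rose by 1.86 ± 0.29. Across all 17 osmotic and glycerol genes 9 were called higher (52.9%) and 6 lower (35.3%), beside 33.1% and 30.1% of all features.

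The cell wall took a larger part of the pool: its 47 genes held 1.90% and 1.59% of reads in log phase and 4.55% and 4.25% at 48 h, with 29 called higher and 9 lower. SED1 stood at 12.80 and 12.13 and then at 15.10 and 15.04 (difference 2.60 ± 0.25). PIR3, a wall protein linked to glucan, went from 5.49 and 5.28 to 11.90 and 11.60, a difference of 6.37 ± 0.20, while its neighbour and relative PIR1 fell by 1.03 (SE 0.15). NCA3, a wall protein of the SUN family, rose by 5.34 ± 0.23. Targets of the wall integrity kinase Slt2 were among the members that rose. PRM5 stood at 6.66 and 6.14 in log phase and at 10.33 and 10.27 at 48 h, and GSC2, the stress-induced glucan synthase, rose by 3.20 ± 0.17. The kinase gene SLT2 itself rose by 1.06 ± 0.15 and its pseudokinase paralog KDX1 by 2.28 ± 0.23. UTR2, a chitin transglycosylase of growing walls, had the largest fall of the list, by 2.58 (SE 0.18).

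On the deposited scale autophagy genes rose without exception among those called, with 27 of 35 higher and 0 lower and a median of 1.22. After quantile normalization 19 were higher and 1 lower, with a median of 0.58. ATG8, the ubiquitin-like protein of the autophagosome, stood at 4.81 and 5.18 in log phase and at 9.01 and 8.82 at 48 h (difference 3.92 ± 0.29; limma adjusted p = 4.92e-08). The largest rise of the list was a receptor for selective autophagy. YLR312C, named ATG39 in RefSeq and a receptor for the nuclear envelope, went from 5 and 4 reads to 340 and 376, a difference of 6.77 ± 0.23. AMS1, the vacuolar mannosidase carried by a selective route, rose by 5.27 ± 0.19. In the vacuole itself 3 protease genes rose: LAP4 by 2.78 ± 0.18, PRB1 by 1.94 ± 0.22 and PEP4 by 1.74 ± 0.16. VMA2, a subunit of the V-ATPase, went from 12.24 and 12.19 to 11.36 and 11.45 (difference -0.81 ± 0.11, and 0.0029 after quantile normalization). The direction of proteasome genes depended on the scaling. On the deposited scale 5 of 35 were higher and 9 lower (median -0.15), after quantile normalization 19 and 0, and with total reads as the scale 31 and 0. The median after quantile normalization was 0.33, beside -0.11 for all features. With total reads as the scale it was 0.51, beside 0.80 for all features.

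Genes of phosphate uptake and storage had the lowest median of the nutrient lists. Of 30 members 21 were called lower and 4 higher, with a median of -1.20. The secreted acid phosphatases PHO11* and PHO12* stood at 11.51 and 11.57 and at 11.66 and 11.72 in log phase, and at 7.85 and 7.78 and at 7.98 and 7.97 at 48 h. These copies are nearly identical, so their differences of -3.73 and -3.71 are 1 measurement. VTC3, of the vacuolar polyphosphate polymerase, went from 12.82 and 12.81 to 9.84 and 10.19 (difference -2.80 ± 0.21), and its partner VTC4 fell by 2.28 (SE 0.17). PHO84, the main high-affinity carrier, stood at 14.12 and 14.21 and then at 11.40 and 12.14, and PHO89, a sodium-coupled carrier, fell by 2.68 (SE 0.32). PHM8, a phosphatase that frees phosphate from nucleotides, rose by 2.84 ± 0.25. The Pho4 element CACGTG was in 53.3% of promoters of the list against 4.62% of all. Among all genes called lower its share was 5.39%, and among those called higher 4.81%, both near that of all promoters. Members of the list with the element had a median difference of -1.96 and those without it -0.39. The VTC3 window is shown for its 2 copies, in capitals; build R64, chr XVI:517119-517418, - strand.
VTC3: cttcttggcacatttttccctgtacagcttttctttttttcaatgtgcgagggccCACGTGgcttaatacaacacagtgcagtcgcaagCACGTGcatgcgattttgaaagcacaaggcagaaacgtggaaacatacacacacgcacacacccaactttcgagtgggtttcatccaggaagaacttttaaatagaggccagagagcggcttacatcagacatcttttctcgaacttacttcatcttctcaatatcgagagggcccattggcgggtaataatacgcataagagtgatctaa

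Metals, vitamins and lipids each had their own pattern. Iron genes had 17 of 31 higher (54.8%) and 3 lower (9.68%), beside 33.1% and 30.1% of all features. FIT3, a wall mannoprotein that holds siderophores, stood at 7.01 and 7.02 in log phase and at 10.68 and 11.34 at 48 h (difference 3.99 ± 0.26), and the haem oxygenase HMX1 rose by 3.32 ± 0.29. FET4, a low-affinity carrier, fell by 1.74 (SE 0.14), as did the zinc carrier ZRT1 by 2.01 (SE 0.24) and the copper carrier CTR1 by 1.64 (SE 0.19). Thiamine and pyridoxine genes had 19 of 22 higher and 2 lower. THI4, of thiazole synthesis, stood at 3.57 and 3.84 and then at 7.29 and 7.69. For NAD, the first enzyme of synthesis from tryptophan, BNA2*, rose by 4.04 ± 0.28 and the nicotinamidase PNC1 by 3.28 ± 0.43. PNC1 stood at 8.07 and 6.41 in log phase, a wide pair, and at 10.63 and 10.41 at 48 h. NPT1, which acts after PNC1 in salvage, fell by 0.89 (SE 0.12). Fatty acid synthesis fell at its main steps. The carboxylase ACC1 went from 13.36 and 13.27 to 10.96 and 11.19, the synthase genes FAS1 and FAS2 fell by 2.16 and 2.20 (SE 0.22 and 0.18), and the desaturase OLE1 fell by 2.68 (SE 0.22). Of 26 ergosterol genes 18 were called lower and 2 higher, with a median of -0.46. With total reads as the scale the median was 0.20, beside 0.80 for all features. After quantile normalization 8 were lower and 4 higher, with a median of -0.04.

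**Figure D4:**
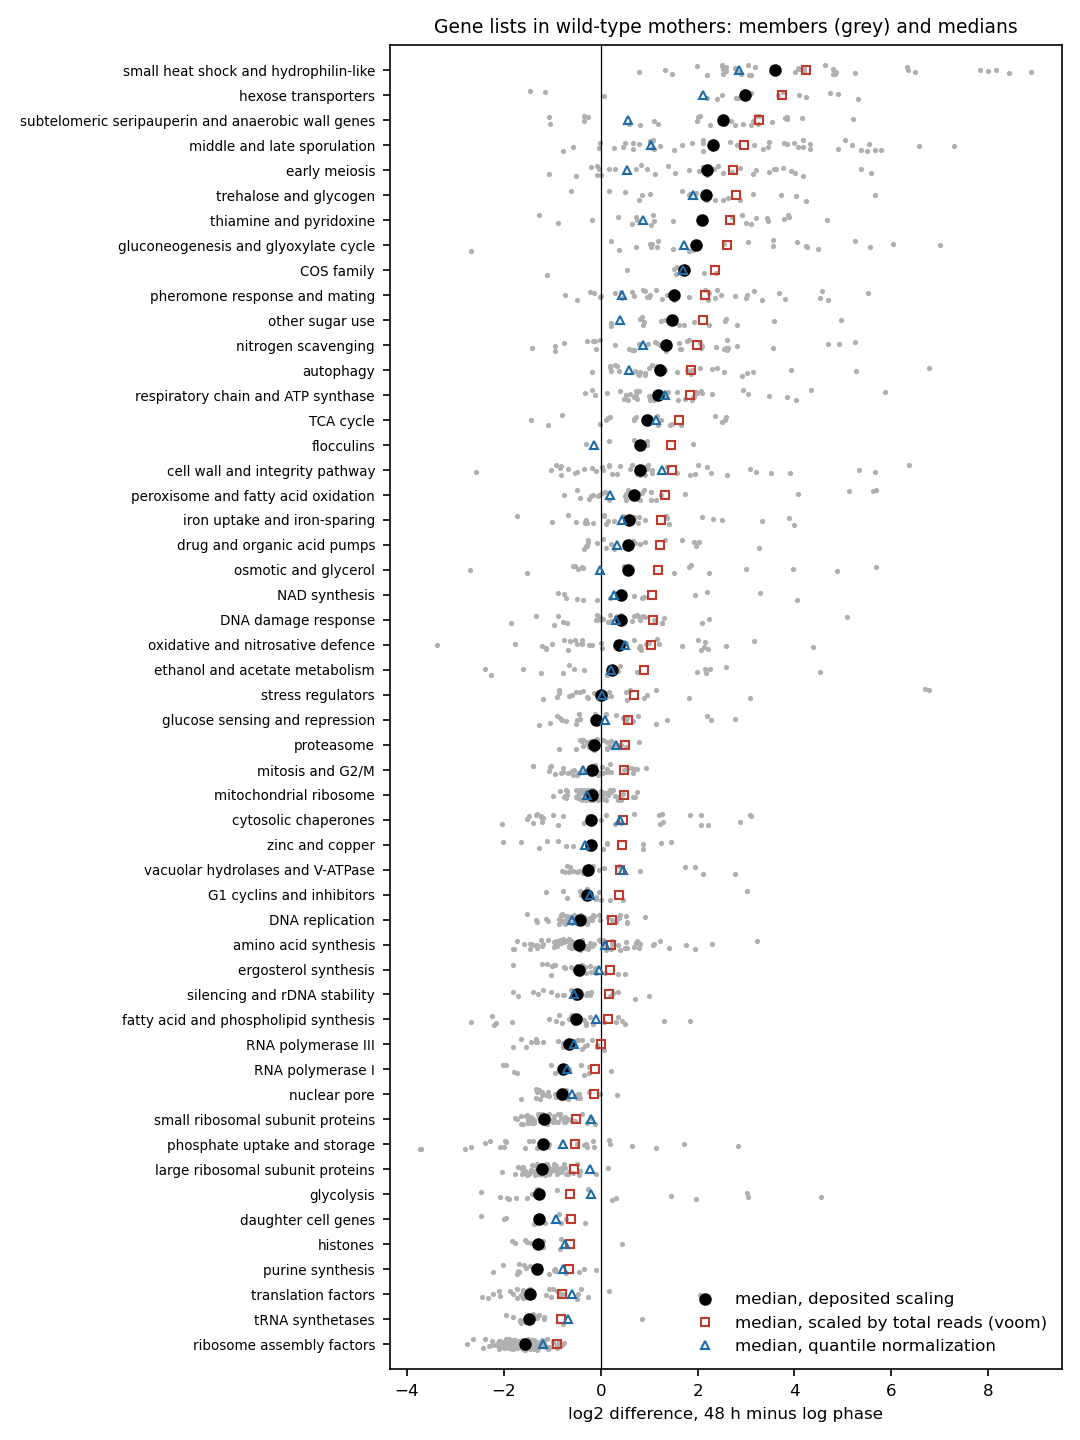
Difference at 48 h minus log phase (log2, horizontal) of each member (grey points) of 52 gene lists, with the list median on the deposited scale (black circle), with total reads as the scale (red square) and after quantile normalization (blue triangle). Small heat shock genes lie highest (median 3.60) and ribosome assembly factors lowest (median -1.57).

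Histone genes fell. Of 11 histone genes 10 were called lower and 0 higher, with a median of -1.29. HTA2, one of the H2A genes, stood at 11.69 and 11.77 in log phase and at 9.75 and 10.05 at 48 h, and CSE4, the centromeric H3 variant, stood at 7.23 and 7.25 and at 7.58 and 7.79 without being called. Among 16 G1 cyclins and inhibitors 1 was called higher and 4 lower. The one that rose was FAR1, the inhibitor of G1 cyclin kinase that acts in pheromone arrest, from 3 and 7 reads to 27 and 27. CLN3, the upstream G1 cyclin, stood at 9.09 and 8.82 and at 8.56 and 8.78 and was not called. DNA replication genes had 28 of 51 lower and 6 higher, with a median of -0.43, and mitosis genes had 16 of 38 lower and 7 higher, with a median of -0.18. With total reads as the scale the counts were 5 lower and 17 higher for replication and 5 lower and 20 higher for mitosis. The medians were then 0.23 and 0.48, below the 0.80 of all features on that scale. After quantile normalization 33 replication genes were lower and 5 higher, and 17 mitosis genes were lower and 7 higher. Daughter-specific genes, which mark newborn cells, were lower in 11 of 12 cases and higher in 0, with a median of -1.28. PRY3, a wall protein of daughters, went from 10.89 and 10.17 to 7.68 and 8.43. The summed daughter markers were 3721 and 2874 RPM, which are reads scaled to the library total, in log phase and 2035 and 2657 at 48 h, and none was at 0. The part that daughter cells in the harvested fractions have in the differences was not tested.

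Genes altered in the mother enrichment strain were checked in each library. UBC9, the SUMO-conjugating enzyme, stood at 8.02 and 7.50 in log phase and at 3.67 and 5.28 at 48 h (difference -3.29 ± 0.40; limma adjusted p = 4.61e-06). CDC20, the activator of the anaphase-promoting complex, stood at 9.83 and 9.69 and at 9.87 and 9.91 and was not called. The system is described as removing both genes in daughters. In these libraries, labelled as mothers, UBC9 was lower and CDC20 changed by 0.13. In mus81 the changes were -4.13 for UBC9 and -0.03 for CDC20. Whether daughters or recombination in mothers have a part in the fall of UBC9 was not tested. SCW11, whose promoter drives the recombinase, fell by 1.38 (SE 0.21).

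DNA damage genes moved in part. Of 34 members 16 were called higher (47.1%) and 6 lower (17.6%), beside 33.1% and 30.1% of all features. The median was 0.42, against 0.15 for all features. HUG1, a small inhibitor of ribonucleotide reductase made in replication stress, stood at 2.76 and 2.56 in log phase and at 7.81 and 7.69 at 48 h (difference 5.09 ± 0.23; limma adjusted p = 6.13e-10). RNR3, the damage-induced large subunit of that enzyme, rose by 2.24 ± 0.26, whereas the S-phase subunit RNR1 went from 11.64 and 11.56 to 9.80 and 9.69. Genes that guard silent chromatin and the rDNA were more often lower, in 13 of 23 cases with 2 higher, but with total reads as the scale 6 were lower and 6 higher. Their median on that scale was 0.17, below the 0.80 of all features. After quantile normalization 15 were lower and 1 higher. SIR2, the NAD-dependent deacetylase of silencing, went from 8.79 and 8.55 to 7.50 and 7.45, FOB1, the rDNA fork barrier protein, fell by 1.28 (SE 0.14), and HMO1, a chromatin protein of rDNA and ribosomal protein genes, by 1.80 (SE 0.18). RNA from the rDNA spacers rose far more. IGS1-2S, a spacer feature on the + strand of chromosome XII at 459797 to 460922 (build R64), stood at 7.31 and 7.34 in log phase, at 14.50 and 14.81 at 24 h and at 14.51 and 15.50 at 48 h. It rose by 7.68 ± 0.36 and IGS2-1S by 5.90 ± 0.30, and at 24 h IGS1-2S already lay near its 48 h values.

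Mating genes rose in these cells, whose mating type the labels do not give. Of 42 pheromone response and mating genes 33 were called higher and 2 lower, with a median of 1.52 that was 0.44 after quantile normalization. FUS1, a membrane protein of cell fusion, stood at 1.35 and 2.34 in log phase and at 7.47 and 7.25 at 48 h (difference 5.52 ± 0.44; limma adjusted p = 8.79e-08). FIG1, another pheromone-induced membrane protein, went from 3 and 2 reads to 54 and 40. STE3, the receptor for a-factor, rose by 3.17 ± 0.26, and STE2, the receptor for α-factor, by 1.15 ± 0.32, although the change of STE2 was -0.17 after quantile normalization. STE12, the transcription factor of the response, went from 8.27 and 8.26 to 7.86 and 7.71 and was called lower, although its change of -0.48 turned positive with total reads as the scale. The 14 markers of cells with a single mating type summed to 58.9 and 66.5 RPM in log phase and 230 and 205 at 48 h, with 11 called higher and 0 lower. One of them was at 0 in log-phase replicate 2. Their part in the rise of mating genes was not tested. The Ste12 element TGAAACA stood in 56.1% of promoters of the list and in 7.63% of all. Among all genes called higher its share was 7.89%, and among those called lower 6.55%, both near that of all promoters. The FUS1 window is shown for its 2 copies near the end, in capitals; build R64, chr III:71403-71702, + strand.
FUS1: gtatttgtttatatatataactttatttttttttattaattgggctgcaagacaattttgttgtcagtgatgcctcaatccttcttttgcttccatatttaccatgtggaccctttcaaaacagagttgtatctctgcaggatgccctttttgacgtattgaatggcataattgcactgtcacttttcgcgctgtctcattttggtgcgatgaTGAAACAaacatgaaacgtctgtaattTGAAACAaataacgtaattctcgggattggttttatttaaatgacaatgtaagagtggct

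Meiosis genes rose on the deposited scale, on which IME1 was not called. IME1, the inducer of meiosis, had 56 and 38 reads in log phase and 46 and 37 at 48 h. These reads are not scaled for depth. The 48 h libraries held fewer reads in all, so similar reads are a larger share there. The deposited values of IME1 overlapped between the ages. Yet 26 of 37 early meiosis genes were called higher and 1 lower, with a median of 2.19, and 44 of 50 middle and late sporulation genes were higher and 2 lower, with a median of 2.32. These medians were 0.54 and 1.05 after quantile normalization, and the early median was -0.05 when features under the 25th percentile of mean level were left out, which removed most of the list. RIM4, an RNA-binding repressor of meiotic translation, stood at 2.08 and 1.34 and then at 7.53 and 7.07 (difference 5.59 ± 0.38). SPO11, which makes meiotic DNA breaks, went from 2 and 5 reads to 44 and 40, and NDT80, the activator of middle genes, from 17 and 5 to 32 and 34. SPS2, a spore wall protein, went from 1 and 1 reads to 65 and 75 (ratio 95.3, 95% interval 25.9 to 795). CDA1, a chitin deacetylase of the spore wall, went from 1 and 2 reads to 157 and 167 (ratio 147, 49.9 to 717). Not every member moved: the sporulation kinase SPS1 stood at 5.93 and 5.98 and at 5.87 and 5.98, and ZIP1, of the synaptonemal complex, overlapped between the ages too. The 10 sporulation markers summed to 18.0 and 18.8 RPM in log phase and 210.4 and 170 at 48 h, and 9 were called higher. At these sums they remained a small part of the pool, and the share of cells that held them is not known from bulk RNA. The Ume6 element GGCGGC was in 30.6% of early meiosis promoters and 6.07% of all, and the core CACAAA, bound by Ndt80 and Sum1, in 70.0% of the later list and 18.1% of all. Among all genes called higher these elements stood in 7.94% and 19.7%, and among those called lower in 5.49% and 16.5%. The windows of RIM4 (chr VIII:56249-56548, + strand) and CDA1 (chr XII:745220-745519, + strand), in build R64, are shown as the largest rises with an element, in capitals, of the early and the late list.
RIM4: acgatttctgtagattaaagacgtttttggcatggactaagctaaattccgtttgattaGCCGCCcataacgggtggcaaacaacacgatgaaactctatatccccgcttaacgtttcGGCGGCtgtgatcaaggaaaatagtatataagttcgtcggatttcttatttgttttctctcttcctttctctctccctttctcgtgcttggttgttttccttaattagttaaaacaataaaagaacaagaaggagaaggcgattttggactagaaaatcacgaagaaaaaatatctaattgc
CDA1: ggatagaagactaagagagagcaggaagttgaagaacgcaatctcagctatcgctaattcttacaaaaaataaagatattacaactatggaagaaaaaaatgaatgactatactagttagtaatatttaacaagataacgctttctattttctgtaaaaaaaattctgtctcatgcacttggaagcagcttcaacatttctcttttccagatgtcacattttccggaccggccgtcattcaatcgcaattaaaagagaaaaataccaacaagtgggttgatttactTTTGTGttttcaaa

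Genes near chromosome ends were more often higher than lower. Genes within 25 kb of an end had 205 called higher (52.3%) and 37 lower (9.44%), with a median of 1.19, whereas genes over 100 kb away had 1553 called higher (31.2%) and 1581 lower (31.8%), with a median of 0.07. The list of subtelomeric seripauperin and anaerobic wall genes had 22 of 30 higher and 2 lower, with a median of 2.52, or 2.47 with 4 members that had no log-phase read set at their lower bound. After quantile normalization 7 were higher and 7 lower, with a median of 0.55. Without features under the 25th percentile of mean level the median was -0.66. PAU2*, a seripauperin, went from 1 and 0 reads to 30 and 22 (ratio 70.8, 95% interval 12.2 to 2851). The COS family, subtelomeric genes for proteins that sort membrane proteins to the vacuole, had 10 of 11 higher and 1 lower. COS1* stood at 7.41 and 7.67 in log phase and at 10.01 and 9.81 at 48 h, while COS10 went from 6.95 and 7.09 to 6.10 and 5.74. Dubious open reading frames, which are not thought to encode proteins, had 233 of 769 called higher, or 30.3%, near the background of 33.1%, and 17 lower, or 2.21%. Their median was 1.32. Their share of reads went from 0.458% and 0.449% to 0.965% and 0.949%.

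Values at 24 h lay between the others for many genes. The comparison of 24 h with log phase uses the same log-phase libraries, so the values are set side by side. HSP26 stood at 9.33 and 8.54 at 24 h, against 11.21 and 10.89 at 48 h, and DBP2 at 11.71 and 12.37 against 10.70 and 11.13. Among the 1445 features that rose by over 2-fold the median share of the 48 h difference seen at 24 h was 70.4%, and 483 were called between 24 h and 48 h. Among the 889 that fell by over 2-fold it was 57.2%, and 662 were called between 24 h and 48 h. Of the rises 846, and of the falls 11, were features below the 25th percentile of log-phase level in mus81. For such features the value given to 0 reads matters. It was -0.39 and -0.40 in log phase, -0.35 and 1.43 at 24 h, and 0.20 and -0.08 at 48 h. The 2 shares are therefore not a comparison of timing, and whether rises came earlier than falls was not tested. FUS1 stood at 7.34 and 6.72 at 24 h, near its 48 h values of 7.47 and 7.25.

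Few features were called as changing differently in old mothers of the mus81 mutant, which lacks a subunit of a nuclease that cuts branched DNA. The difference between the changes was tested as an interaction in the same limma fit. It was called for 8 features, or 0.12%, with a larger rise in wild type, and for 0 with a smaller one; at an unadjusted p under 0.05 there were 218 and 114, and voom called 1 and 0. With 2 libraries per group, a difference that was not called is not shown to be absent. MOH1 differed by 2.55 and PCK1 by 1.80 without being called. Of the 8 called, 5 were genes. HSP12 rose by 8.16 in wild type and 6.20 in mus81 (difference 1.96 ± 0.27; limma adjusted p = 0.00634). HUG1 rose by 5.09 and 2.72 (difference 2.37 ± 0.32; limma adjusted p = 0.00634). The α-factor genes MF(ALPHA)1 and MF(ALPHA)2 changed by 3.00 and 3.32 in wild type and by 0.02 and -1.10 in mus81, and CDA1 by 7.29 and 4.29. MF(ALPHA)2 rested on 2 and 0 reads in log phase and on 12 and 8 at 48 h in wild type. The count depended on single libraries: it was 0 without replicate 2 of wild type at 48 h or replicate 2 of mus81 at 48 h, 3 without replicate 1 of wild type at 48 h, and 5 without log replicate 1 of wild type or log replicate 2 of mus81. The other 3 features were the spacers IGS1-2S and IGS2-1S and a 2-micron plasmid feature. In the control strain of the translocation experiment, which had no replicate and another scaling, the medians were 3.66 for small heat shock genes, -1.77 for assembly factors and 2.32 for middle and late sporulation, beside 3.60, -1.57 and 2.32 here.

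**Figure D5:**
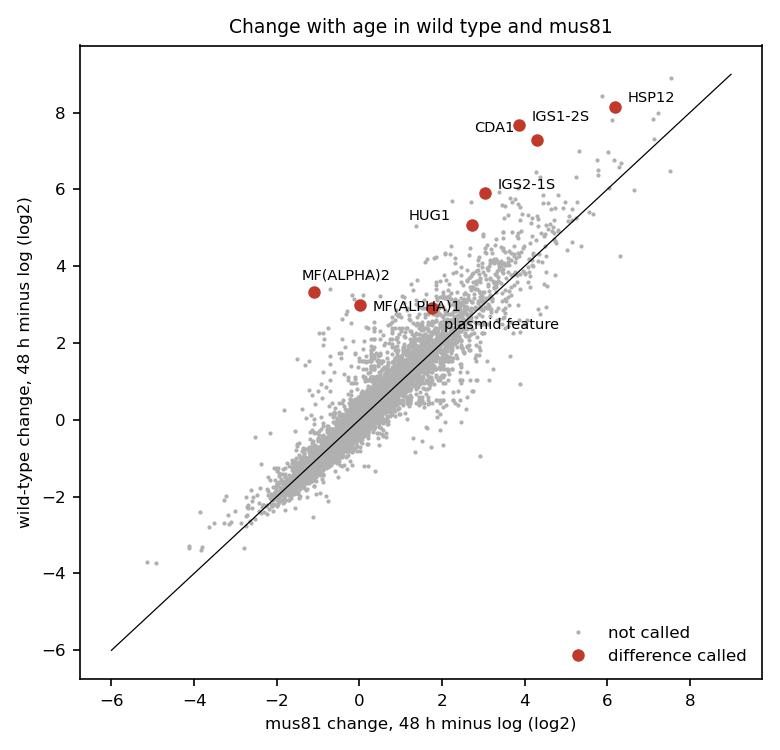
Change with age in wild type (48 h minus log, log2, vertical) against the change in the mus81 mutant (horizontal), with 1 grey point per feature tested and the line of equal change. The 8 features in red, for which the changes differed by the interaction test, all lie above the line, among them HSP12 (8.16 and 6.20) and MF(ALPHA)1 (3.00 and 0.02).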

How the data were processed

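The deposited table held log2 values of read counts per feature, scaled by the authors; from its steps whole reads were recovered, with 0 reads entered as 0.9 and low values whole within 0.02. Trim Galore 0.6.6, HISAT2 2.1.0 and build 64 of the yeast genome are named in the submitters' processing notes. The deposited values were fitted with limma 3.58.1 in R 4.3.3 (12 libraries in 6 groups, variance trend, 6 residual degrees of freedom), on features above 0 reads in at least 2 libraries, with Benjamini-Hochberg adjustment over 6669 features at a threshold of 0.05. The fit was checked on simulated data. Strand use was checked on 14 dubious genes antisense to abundant ones. The control strain came from a separately normalized table with deposited log2 values. The members and the 52 lists were chosen with earlier results of these data known. Genes were named by a rule (the 15 largest changes each way among genes above the 25th percentile of level, the 4 largest each way and 3 nearest 0 per list, isozymes, spacers and strain genes), and 31 further genes were named for their known roles after their values were seen. Intervals cover counting error only. Alternatives were quantile, median and total-read (voom) scaling, filters, no trend, fewer libraries and replicate blocks.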

Additional observations from a re-analysis of the deposited data

Results flagged for a closer look

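The following differences between wild type and mus81 in the change with age passed the interaction test in limma at an adjusted p under 0.05 among the features named here. They were 4.42 ± 0.73 for MF(ALPHA)2, 3.81 ± 0.51 for the spacer IGS1-2S, 3.00 ± 0.49 for CDA1, 2.98 ± 0.46 for MF(ALPHA)1, 2.86 ± 0.42 for the spacer IGS2-1S, 2.37 ± 0.32 for HUG1 and 1.96 ± 0.27 for HSP12. All were larger in wild type.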

How the results depend on the processing

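Scaling mattered most. With voom on total reads 3963 features were called higher and 900 lower, and 1442 were called higher when features under the 25th percentile of mean level were left out. List medians changed sign with voom for amino acid synthesis (0.21), glucose sensing (0.56), mitochondrial ribosome (0.47), chaperones (0.46), vacuolar genes (0.39), proteasome (0.51), zinc and copper (0.44), ergosterol (0.20), fatty acid synthesis (0.15), G1 cyclins (0.37), DNA replication (0.23), mitosis (0.48) and silencing (0.17). After quantile normalization they did so for amino acid synthesis (0.091), glucose sensing (0.092), chaperones (0.39), osmotic genes (-0.011), vacuolar genes (0.45), proteasome (0.33) and flocculins (-0.14). Without those features they did so for ethanol metabolism (-0.35), osmotic genes (-0.38), early meiosis (-0.045) and seripauperins (-0.66). Glucose sensing lay between -0.15 and 0.084 without 1 library, at 0.060 and 0.084 without 48 h replicate 1 and 2. The change of STE12 was 0.17 with voom, and those of STE2 and VMA2 were -0.17 and 0.0029 after quantile normalization. The cause was not tested. Leaving out 1 library gave 3590 to 4226 calls, 1832 to 2205 higher and 1758 to 2021 lower.

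For the difference from mus81, 0 features were called after quantile normalization, 1 with voom, 4 without features under the 25th percentile, 2 without the variance trend and 0 to 11 without 1 library. Log-phase and 48 h libraries with the same replicate number also shared an A tag in their library names, whose meaning the labels do not give. At 24 h the tags ran the other way round. The replicate differences in wild type at log phase and at 48 h correlated at -0.0071. A replicate block on the title number gave 4278 calls with age and 8 for the difference, while a block on the A tag gave 4189 and 10. Depth limits genes with few log-phase reads.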

Other observations

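Some genes with almost no log-phase reads lie next to each other. CDA1 (chr XII:745620-746525) and YLR307C-A (chr XII:746848-747111), in build R64, are neighbours; YLR307C-A had 0 and 0 reads in log phase and 295 over both libraries at 48 h. MOH1 lies at chr II:126828-127244, beside RRT1 at chr II:127299-127610. Whether reads of neighbours are independent was not tested.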
